A study of Mus musculus with 2 samples.

Results

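Cholesterol and fatty acid synthesis genes were examined in RNA from the VZ–SVZ, the ventricular and subventricular progenitor layers, of the embryonic mouse cortex. The set holds 31 genes of the 21896 gene symbols measured, taken by name from a list of pathway enzymes, their regulators and sterol transporters, and all 31 were present in both libraries. The list does not hold every enzyme of the pathway. The study asks what the loss of Rcor2, a co-repressor that works with the histone demethylase LSD1, does to cortical progenitors. C57/BL6 embryos were taken at E13.5 from crosses between Rcor2fl/+ NesCre mice, and 1 library was made for each genotype. The Rcor2fl/fl library, the control, carries both floxed alleles of Rcor2. The Rcor2cko library carries the same floxed alleles with Nestin-driven Cre, which is active in the neural lineage, so that microglia and blood cells in the dissection keep the floxed alleles. The labels do not say how many embryos went into a library, or whether the control carried Cre. With 1 library per genotype no difference below has a replicate check, and each comparison is between these 2 libraries and not between the genotypes.

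Cells make cholesterol from acetyl-CoA through mevalonate, squalene and lanosterol, and fatty acids from acetyl-CoA through malonyl-CoA. Both routes are switched on by the sterol regulatory element-binding proteins (SREBPs), which Scap carries out of the endoplasmic reticulum when membrane sterol is low and which Insig proteins hold back when it is high. When oxysterols accumulate, the liver X receptors (LXRs) switch on cholesterol export through Abca1. Dividing progenitors and growing neurons of the fetal brain need both products for new membrane, and the brain makes nearly all of its own cholesterol.

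The values are FPKM, fragment counts scaled to transcript length and to the size of the library, as the authors deposited them with a 95% FPKM interval. Transcript rows of the Rcor2fl/fl library were summed per gene. Fragments could be recovered from the FPKM steps, and the scaling totals were 18840917 fragments for Rcor2fl/fl and 25481186 for Rcor2cko, so that 3 fragments over a transcript of 2000 nt correspond to 0.0882 and 0.0654 FPKM. Rcor2 itself was at 90.6 FPKM in the control and 55.7 FPKM in the Rcor2cko library, a gene-level value that includes exons outside the floxed part. Genes of cortical progenitors (8 of 8, 10.8 to 539 FPKM over both libraries) were high in both libraries, as the dissection's label says. Genes of cortical neurons (5 of 5 found, 71.5 to 568 FPKM) were high in both as well, which a label of progenitor layers does not say. Summed FPKM of 6 ventral telencephalic genes went from 17.0 to 52.1, of 4 microglial genes from 6.97 to 10.4, of 5 choroid plexus genes from 0.654 to 60.8 (Ttr alone from a listed 0 to 57.8), of 6 endothelial genes from 29.1 to 30.8 and of 7 erythroid genes from 344 to 255. Mesenchymal genes summed to 1.52 and 1.81 FPKM, astrocyte genes to 1.37 and 3.97 and mature oligodendrocyte genes to 9.47 and 11.4. Xist was at 177 and 0.109 FPKM, so that the sex of the embryos cannot be told apart from genotype. The part of these differences in the results below was not tested, except where a value is given. In bulk tissue, fewer cells of a type and less RNA per cell cannot be told apart.

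Most genes of the set were slightly lower in the Rcor2cko library, on both the sterol and the fatty acid side, and the sterol exporter Abca1 had the largest difference in the other direction. Of the 31 genes, 30 reached 1 FPKM, all 30 of them in both libraries. For these the log2 change is the difference in log2(FPKM + 0.1), the Rcor2cko value less the control value, a scale that slightly understates changes of low genes. Of the 30 genes, 26 had a log2 change below 0 and 4 above it, where 57.6% of all 11777 genes passing the same filter were below 0. Their median log2 change was -0.17, against -0.03 over all genes. The changes were small: the middle part of the set, between the quartiles, ran from -0.26 to -0.09, against -0.15 to 0.09 over all genes.

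No gene of the set was more than 1.5-fold lower, where 1.76% of all genes were, and 1 (Abca1) was more than 1.5-fold higher, against a background of 3.79%. At the milder criterion of 1.2-fold, 6 of 30 genes were lower (Dhcr7, Elovl6, Acaca, Mvd, Acat2 and Lss), against 9.98% of all genes, and 2 were higher (Abca1 and Scd1), against 10.4%. The criterion of 1.2-fold lies at 0.26 on the log2 scale and runs through a dense stretch of the set: Lss was just inside it, and Insig1 and Srebf2, both at -0.26 after rounding, just outside. Among the 8539 genes whose mean over both libraries reached 5 FPKM, 60.8% were below 0 and 7.32% were more than 1.2-fold lower. Of the set, 27 genes reached that mean, of which 25 were below 0 and 6 more than 1.2-fold lower. The log2 changes had an SD of 0.22 over the 30 genes and 0.14 without Abca1, against 0.36 over genes with that mean. The 95% FPKM intervals were wide, and those of the 2 libraries were apart for Abca1 alone among the 30 genes, against 3.47% of all genes.

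**Figure D1:**
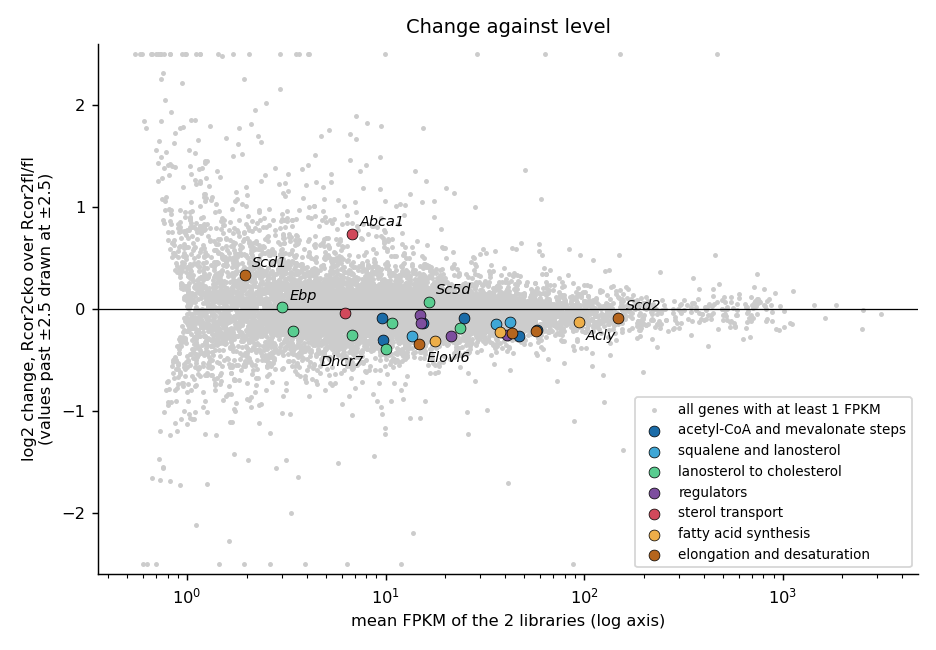
Difference in log2(FPKM + 0.1), Rcor2cko less Rcor2fl/fl (vertical axis), against the mean FPKM of the 2 libraries (horizontal log axis); grey points are all genes with at least 1 FPKM in a library, and coloured points are the synthesis genes by role. Of the 30 coloured points 26 lie below 0, in a narrow band, and Abca1 stands above the others at 0.74.

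For 26 of the 31 genes, which have 1 transcript of at least 1000 nt in the files, recovered fragments gave a finer comparison. They ran from 206 fragments over both libraries for Ebp to 34493 for Scd2. An exact binomial test, two-sided, on these fragments, with Benjamini-Hochberg adjustment over all 12093 genes tested, asks only whether the 2 libraries differ by more than counting error. It called 15 of the 26 genes lower in the Rcor2cko library at an adjusted p under 0.05, where 11.9% of all tested genes were called lower, and 1 higher (Abca1), where 8.53% were. Among the 7715 genes with at least 200 fragments, a depth that all 26 genes reached, 17.4% were called lower and 10.2% higher. This floor does not match the depth of the set, and the test calls smaller differences where fragments are many. Several of the 26 genes lie far above it, such as Fasn (7494 and 8686 fragments) and Scd2 (15166 and 19327). The part of depth in the number of calls, here and by role below, was not tested. The test covers counting error only and says nothing of the spread between embryos.

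**Figure D2:**
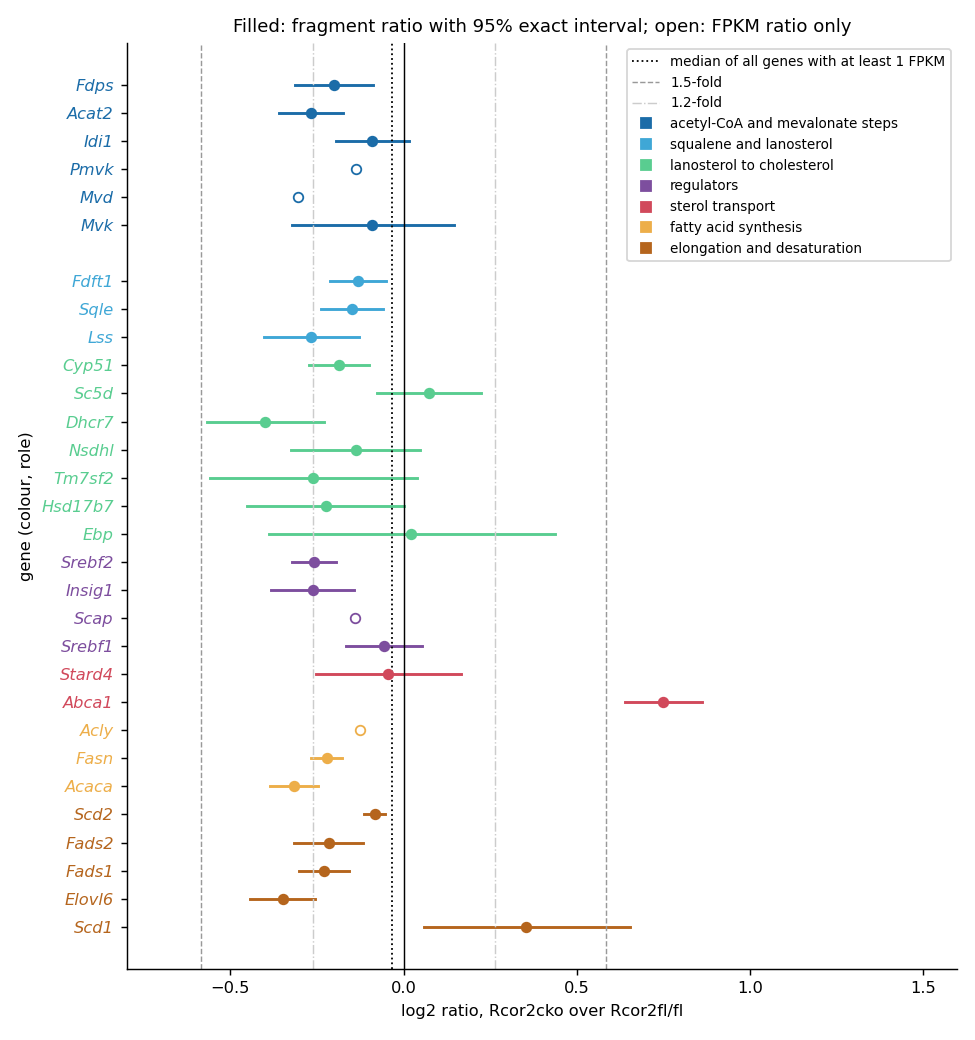
Log2 ratio of each gene, Rcor2cko over Rcor2fl/fl (horizontal axis), for the 30 genes with at least 1 FPKM, coloured by role; filled points are ratios of recovered fragments with 95% exact intervals, open points are FPKM ratios of genes without recovered fragments. The intervals of 15 genes lie wholly below 0, those of Abca1 and Scd1 wholly above it, and the other 9 include 0.

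The enzymes that carry acetyl-CoA to farnesyl pyrophosphate were below 0 in all 6 that could be compared, against 57.6% of all genes, with a median log2 change of -0.17. Fdps, which makes farnesyl pyrophosphate, was the most abundant of them, at 62.0 FPKM in the control and 53.9 FPKM in the Rcor2cko library. Its log2 change was -0.20, with a 95% exact interval of the fragment ratio from -0.31 to -0.09, and the adjusted p of the exact test was 0.00324. Acat2, the cytosolic thiolase that joins acetyl-CoA units, went from 51.2 to 42.6 FPKM, a log2 difference of -0.27 (interval -0.36 to -0.18, exact test adjusted p = 2.40e-07). Acat3, a close copy of Acat2 beside it on chromosome 17, was at 12.9 and 11.3 FPKM, and how the authors divided reads that match both is not stated, so that the value of Acat2 is less certain than its interval. These intervals do not reach 0, although the wider FPKM intervals of both genes overlap between the libraries.

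Mvd, which decarboxylates mevalonate pyrophosphate, went from 10.8 to 8.72 FPKM, a log2 difference of -0.31. The control file also lists a non-coding Mvd transcript at 0, so that fragments were not recovered. Pmvk, the second kinase of the route, was at 16.2 and 14.7 FPKM, from transcripts at 15.6 and 0.617 FPKM in the control. Idi1, the isomerase that makes the reactive isoprene unit, was at 25.7 and 24.2 FPKM, and Mvk, mevalonate kinase, at 9.85 and 9.26 FPKM. Both had a log2 change of -0.09 and an interval that includes 0 (-0.20 to 0.02 for Idi1 and -0.32 to 0.14 for Mvk). The group thus spans a range from about no difference, in Mvk and Idi1, to the 1.2-fold differences of Mvd and Acat2.

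Hmgcs1, which makes HMG-CoA from acetyl-CoA, is the gene of the set that these files do not measure. It was listed at 0.223 FPKM in the control and 0.166 FPKM in the Rcor2cko library, below every other gene of the set by a wide margin. The files place it on chr13_random of mm9, from 114710 to 132325, and list 2 copies of its transcript there, at 0.103 and 0.120 FPKM in the control. Such copied rows occur for 264 genes, of which 6.06% reached 1 FPKM in the control library and 6.44% in the Rcor2cko library, against 52.5% and 53.0% of all genes. Zfp131, a zinc finger gene of the same unplaced contig, chosen after its values were seen, was likewise at 0.192 and 0.170 FPKM. The level of Hmgcs1 in this tissue can therefore not be read from these values.

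**Figure D3:**
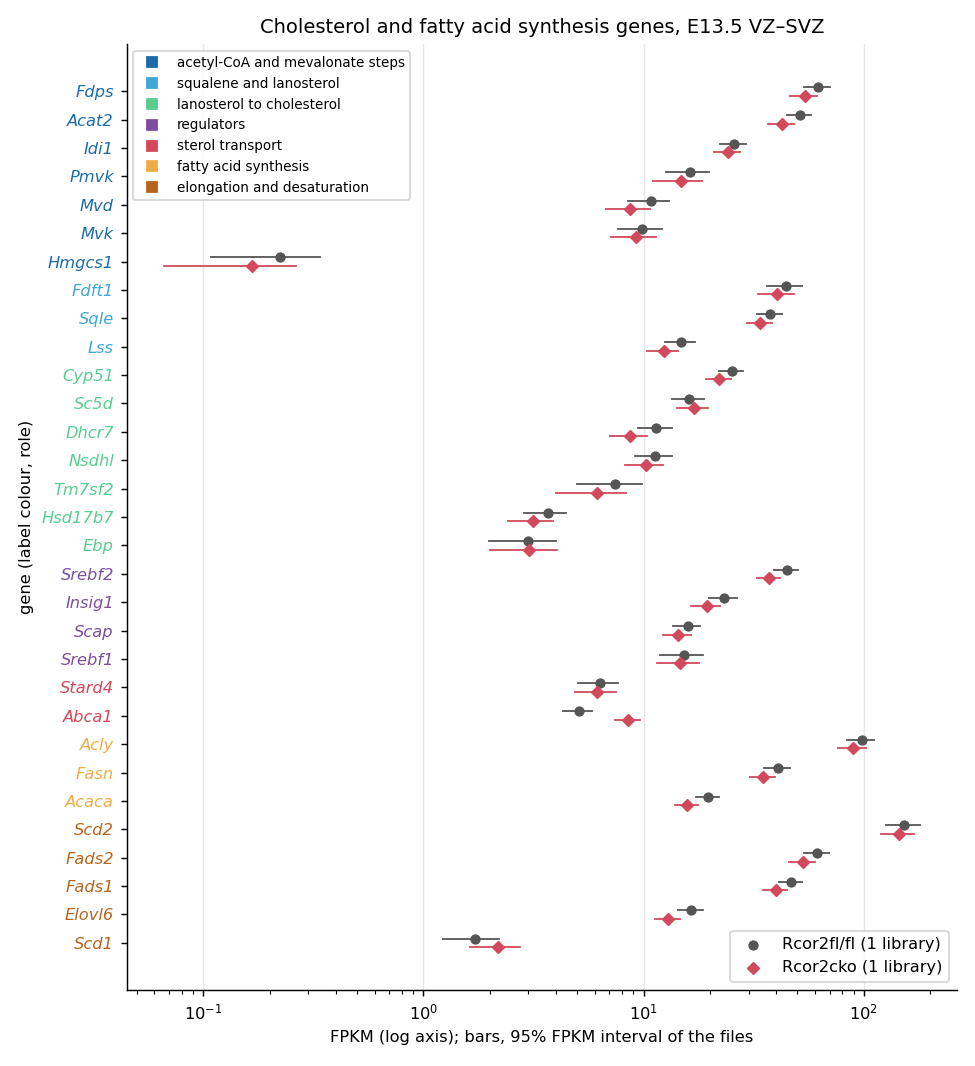
FPKM of the 31 genes (horizontal log axis) in the 1 Rcor2fl/fl library (grey circles) and the 1 Rcor2cko library (red diamonds), with genes ordered by role and by control level. Bars are 95% FPKM intervals, combined over rows for control values of genes with several rows. Levels run from 1.71 FPKM for Scd1 to 153 FPKM for Scd2 in the control, apart from Hmgcs1 at 0.223, and the diamond lies left of the circle for most genes and clearly right of it for Abca1.

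All 3 enzymes that make lanosterol were called lower, where 17.4% of genes with at least 200 fragments were. Fdft1, squalene synthase, was at 44.5 and 40.6 FPKM, a log2 difference of -0.13 (interval -0.21 to -0.05, exact test adjusted p = 0.00937). Sqle, squalene epoxidase and a control point of the route, was at 37.7 and 34.0 FPKM, a log2 difference of -0.15 (-0.24 to -0.06, exact test adjusted p = 0.00815). Lss, which closes the rings to lanosterol, was at 14.8 and 12.3 FPKM, with the larger log2 change of -0.26 (-0.40 to -0.13, exact test adjusted p = 0.00137). The annotated exons of Fdft1 share a stretch of 769 nt with Ctsb on the opposite strand, a gene at 28.5 FPKM in the control, and whether strand was used in counting is not stated. With totals centred on the median gene, the adjusted p of Fdft1 in the exact test was 0.0536, and Fdft1 was the only 1 of the 16 calls that was lost.

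The 7 enzymes that convert lanosterol to cholesterol were more mixed, with 5 below 0, 2 above it and a median of -0.19, where 57.6% of all genes were below 0. Dhcr7, which catalyses the last reduction to cholesterol and is mutated in Smith-Lemli-Opitz syndrome, had the most negative change of the set. It lies on chromosome 7 of mm9 from 151009050 to 151034315 and went from 11.4 to 8.67 FPKM, or from 565 fragments in the smaller library to 578 in the larger. Its log2 change was -0.39 (interval -0.57 to -0.23, exact test adjusted p = 4.95e-05), and 4.63% of all genes changed by as much downwards. Cyp51, the lanosterol demethylase, went from 25.1 to 22.1 FPKM, a log2 difference of -0.19 (-0.27 to -0.10, exact test adjusted p = 0.000297). These 2 of 7 were the calls in this group, against 17.4% of genes with at least 200 fragments.

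Sc5d, the lathosterol desaturase that acts just before Dhcr7, was at 16.1 and 16.9 FPKM, a log2 difference of 0.07 with a 95% interval of -0.08 to 0.22. The intervals of Sc5d and Dhcr7, neighbours in the route, do not overlap. The remaining genes were less abundant and less precisely measured. Tm7sf2, a sterol reductase, was at 7.39 and 6.17 FPKM (-0.26, interval -0.56 to 0.04), and it shares 532 nt of exon on the same strand with 1110014N23Rik, at 14.1 and 12.7 FPKM. Hsd17b7, a ketoreductase, was at 3.67 and 3.14 FPKM (-0.22, -0.45 to 0.00), with an exact test adjusted p of 0.163. Nsdhl, a decarboxylating dehydrogenase, and Ebp, the sterol isomerase, are both on the X chromosome. Nsdhl was at 11.3 and 10.3 FPKM (-0.14, -0.32 to 0.05), and Ebp at 2.98 and 3.03 FPKM (0.02, -0.39 to 0.44). The 411 X-linked genes passing the filter had a median log2 change of 0.02, and without Nsdhl and Ebp 25 of 28 genes of the set were below 0.

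All 4 regulators in the set were below 0, with a median log2 change of -0.20, where 57.6% of all genes were below 0. Other regulators, among them Insig2, Mbtps1 and Mbtps2, fall in a list given below, with a median of 0.01. Of the 3 with recovered fragments 2 were called lower, against 17.4% of genes with at least 200 fragments. Srebf2, which encodes the SREBP that chiefly drives cholesterol synthesis, was at 44.6 FPKM in the control and 37.3 FPKM with Rcor2cko, a log2 difference of -0.26 (interval -0.32 to -0.19, exact test adjusted p = 1.37e-13). Srebf1, whose product chiefly drives fatty acid synthesis, was at 15.3 and 14.7 FPKM, a log2 difference of -0.06 with a 95% interval of -0.17 to 0.05 that includes 0. The ratio of Srebf2 to Srebf1 was thus 2.93 in the control and 2.54 in the Rcor2cko library. Annotated Srebf1 exons share 109 nt with Rai1 on the opposite strand, at 20.9 and 18.6 FPKM.

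Insig1, itself a target of the SREBPs and the retainer of Scap, went from 23.2 to 19.4 FPKM, a log2 difference of -0.26 (-0.38 to -0.14, exact test adjusted p = 0.000210). Scap was at 15.8 and 14.4 FPKM, a log2 difference of -0.14. Its control value comes from transcripts at 6.89 and 8.95 FPKM, so that no fragments were recovered. None of the 4 regulators was past 1.2-fold.

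Abca1 was the gene of the set with the largest difference between the libraries. It encodes the transporter that loads cholesterol onto apolipoproteins at the plasma membrane, and lies on chromosome 4 of mm9 from 53043659 to 53172767. It was at 5.07 FPKM in the control, from 961 fragments, and at 8.53 FPKM in the Rcor2cko library, from 2185 fragments. The log2 change of 0.74, a 1.68-fold ratio, had an interval from 0.64 to 0.86 and an exact test adjusted p of 3.45e-41. Of all genes, 2.57% were higher by as much. Microglial and choroid plexus genes were also higher in the same library: Csf1r went from 2.67 to 4.32 FPKM, P2ry12 from 1.09 to 2.39 FPKM and Cx3cr1 from 1.89 to 2.35 FPKM, while Aif1 was at 1.32 and 1.40 FPKM. Of the choroid plexus genes other than Ttr, Aqp1 was at 0.352 and 1.40 FPKM, Clic6 at 0.0598 and 0.820, Folr1 at 0.243 and 0.723, and Kl at a listed 0 and 0.00798 FPKM. The part of these cells in the value of Abca1 was not tested. Stard4, a cytosolic sterol carrier and SREBP target, was at 6.35 and 6.16 FPKM, a log2 difference of -0.04 (-0.25 to 0.17).

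Genes of fatty acid synthesis were lower as well. The 3 genes that make palmitate had a median log2 change of -0.22, and both with recovered fragments were called lower, against the same 17.4%. Acaca, acetyl-CoA carboxylase, which makes malonyl-CoA and sets the pace of the route, went from 19.7 to 15.8 FPKM, or 3274 and 3554 fragments. Its log2 change was -0.31 (interval -0.38 to -0.25, exact test adjusted p = 1.24e-17). Fasn, fatty acid synthase, went from 40.8 to 35.0 FPKM, from 7494 and 8686 fragments, a log2 difference of -0.22 (-0.27 to -0.18, exact test adjusted p = 2.05e-20). Acly, which supplies cytosolic acetyl-CoA to both routes, was at 97.9 and 89.7 FPKM, a log2 difference of -0.13, the control value being the sum of transcripts at 49.7 and 48.2 FPKM. Its FPKM intervals, 84.4 to 111 and 76.6 to 103 FPKM, overlap.

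The 5 genes of elongation and desaturation held both the most abundant and the least abundant measured gene of the set. Scd2, the stearoyl-CoA desaturase of the developing brain, was at 153 and 144 FPKM, within the top 2.13% of the genes passing the filter in the control, and its log2 change of -0.08 (-0.11 to -0.05, exact test adjusted p = 1.68e-06) was the smallest among the genes called. Scd1, the desaturase of liver and fat, was at 1.71 and 2.19 FPKM, from 150 and 259 fragments. Its log2 change was 0.34, with an interval from 0.06 to 0.65, and an adjusted p of 0.0725 in the exact test. The ratio of Scd2 to Scd1 was 89.3 in the control and 65.9 in the Rcor2cko library.

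Elovl6, which lengthens palmitate to stearate, went from 16.5 to 13.0 FPKM, the second most negative change of the set at -0.35 (interval -0.44 to -0.26, exact test adjusted p = 9.51e-12). The desaturases of polyunsaturated fatty acids, which lie side by side on chromosome 19, moved alike. Fads1 was at 46.9 and 39.9 FPKM, a log2 difference of -0.23 (-0.30 to -0.16, exact test adjusted p = 9.89e-09), and Fads2 at 61.6 and 53.1 FPKM, a log2 difference of -0.22 (-0.32 to -0.12, exact test adjusted p = 0.000240). Summed over its 8 genes, the fatty acid side of the set was at 438 and 393 FPKM, and the sterol side, over 17 genes with Hmgcs1, at 351 and 311 FPKM.

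Because most genes of the set moved the same way, their promoters were compared for letters of 4 motifs linked to SREBP-driven genes. RefSeq windows on GRCm38.p6, from 250 bases before to 50 bases after a start site, were held for 24 of the 31 genes. Both strands were searched, and a gene counted where any of its windows held the motif. The CCAAT box (CCAAT), the binding motif of NF-Y, was in 18 of 24 genes (75%), against 44.0% of 8374 genes with at least 1 FPKM in a library and 41.1% of all 27025 genes. The GC box (GGGCGG), bound by Sp factors, was in 20 of 24 (83.3%), against 71.9% and 38.2%. The E-box (CACGTG) was in 6 (25%), against 12% and 8.09%. The stringent form of the sterol regulatory element searched here (TCACNCCAC) was in 1 (4.17%), Hmgcs1, against 1.41% and 1.44%. Matches to different motifs overlapped in 0 windows of the set. A match is a description of the letters and not a site of binding.

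The 250 bases before the start site are shown for 4 of these genes, with motif letters in capitals: Abca1, the gene that was higher; Insig1 and Lss, a regulator and an enzyme that were called lower; and Hmgcs1, the gene with the sterol regulatory element. Positions count from the start site as 1, with -1 just before it. They are chr4:53159896-53160145 (minus strand) for Abca1, chr5:28071162-28071411 (plus) for Insig1, chr10:76531355-76531604 (plus) for Lss and chr13:119690101-119690350 (plus) for Hmgcs1, on GRCm38.p6, a later build than the mm9 of the files.
Abca1: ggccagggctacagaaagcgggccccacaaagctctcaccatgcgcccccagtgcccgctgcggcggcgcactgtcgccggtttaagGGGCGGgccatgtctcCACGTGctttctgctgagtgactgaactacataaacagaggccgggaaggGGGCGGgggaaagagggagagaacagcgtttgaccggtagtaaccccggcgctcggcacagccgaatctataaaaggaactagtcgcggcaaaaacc
Insig1: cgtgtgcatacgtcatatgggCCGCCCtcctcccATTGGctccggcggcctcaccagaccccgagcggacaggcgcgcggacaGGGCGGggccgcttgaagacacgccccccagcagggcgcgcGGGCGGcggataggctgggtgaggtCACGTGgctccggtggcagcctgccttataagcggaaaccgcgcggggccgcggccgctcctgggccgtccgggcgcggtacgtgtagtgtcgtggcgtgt
Lss: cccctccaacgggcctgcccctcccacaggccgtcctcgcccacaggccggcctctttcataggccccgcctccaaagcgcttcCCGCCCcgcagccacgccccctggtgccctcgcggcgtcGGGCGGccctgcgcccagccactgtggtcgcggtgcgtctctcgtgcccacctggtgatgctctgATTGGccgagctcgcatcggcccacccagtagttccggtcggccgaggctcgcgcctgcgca
Hmgcs1: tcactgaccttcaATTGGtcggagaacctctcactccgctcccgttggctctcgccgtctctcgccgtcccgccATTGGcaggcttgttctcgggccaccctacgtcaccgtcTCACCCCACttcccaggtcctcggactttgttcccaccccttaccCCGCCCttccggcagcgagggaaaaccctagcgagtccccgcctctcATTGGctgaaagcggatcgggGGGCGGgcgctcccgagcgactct

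Abca1 has no CCAAT box in its window, but an E-box that begins at -147 between GC boxes at -163 and -97. The lack of a CCAAT box is not particular to the gene that was higher. Acat2, Elovl6 and Fads2, all called lower, and Scap, slightly lower, have none either. The window of Acaca has none as well, but it may not lie at the first start of the gene. The deposited transcript of Acaca begins at 84008940 on chromosome 11 of mm9, inside a GENCODE gene that begins at 83943174. Sc5d and Ebp, slightly higher in the Rcor2cko library, do have CCAAT boxes. Motifs were not tested against the direction of change. Insig1 has a CCAAT box at -216, GC boxes at -229, -167 and -126, and an E-box at -101. In Lss the CCAAT box is at -62, with GC boxes at -166 and -127. In Hmgcs1 the sterol regulatory element is at -137, between CCAAT boxes at -176 and -45.

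Counts in neighbouring lipid pathways are read against all genes passing the filter, of which 57.6% were below 0, 9.98% lower and 10.4% higher by over 1.2-fold, and 1.76% lower by over 1.5-fold, with a median of -0.03. Of 28 genes of sterol regulation, uptake and export passing the filter, 14 (50%) were below 0, with a median log2 change of 0.01, and 3 were more than 1.2-fold lower and 2 higher. The largest differences among them were in Cyp46a1, the neuronal cholesterol hydroxylase (7.37 and 5.32 FPKM, -0.46), in Tmem97, a sterol-regulated receptor (9.60 and 7.28 FPKM, -0.39), in Apoe, the apolipoprotein that takes up exported cholesterol (13.8 and 18.6 FPKM, 0.43), and in Vldlr, a lipoprotein and reelin receptor (7.33 and 9.33 FPKM, 0.34). Abcg1, an exporter that LXRs also control and that was chosen after its value was seen, was at 2.58 and 2.87 FPKM, a log2 difference of 0.15 with a 95% interval of -0.07 to 0.38.

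Of 12 genes of the isoprenoid branches, which leave the sterol route after farnesyl pyrophosphate, 6 (50%) were below 0, with a median of -0.02. They ran from Dhdds, of dolichol synthesis (17.0 and 14.0 FPKM, -0.28), and Pggt1b, a subunit of a prenyltransferase (-0.14), to Ggps1, which makes geranylgeranyl pyrophosphate (0.16), and Pdss2, of coenzyme Q synthesis (3.83 and 4.92 FPKM, 0.35). Of 43 genes of fatty acid and lipid assembly, 20 (46.5%) were below 0, with a median of 0.00, and 1 was past 1.5-fold: Thrsp, a lipogenic regulator, at 2.01 and 0.797 FPKM, a log2 difference of -1.24 from 32 and 17 fragments. Of 23 genes of fatty acid oxidation, 14 (60.9%) were below 0, with a median of -0.05, and the ends of the list were Etfb (29.8 and 22.4 FPKM, -0.41) and Ppard (-0.36) on the lower side and Acadl (4.56 and 6.31 FPKM, 0.46) and Ppargc1a (0.27) on the higher. By more than 1.2-fold, 1 isoprenoid gene was lower and 1 higher, 3 assembly genes were lower and 6 higher, and 4 oxidation genes were lower and 2 higher. The shares below 0 lie near that of all genes, and the difference between these lists and the synthesis genes was not tested.

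**Figure D4:**
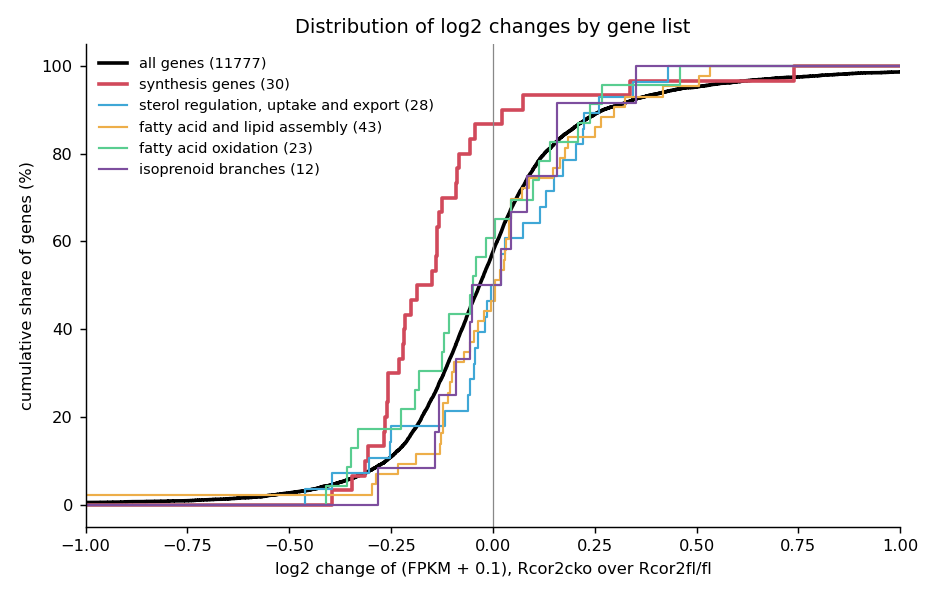
Cumulative share of genes (vertical axis, %) against the difference in log2(FPKM + 0.1), Rcor2cko less Rcor2fl/fl (horizontal axis, shown from -1 to 1), for the synthesis genes, 4 other lipid lists and all genes passing the filter, with the number of genes in brackets. The curve of the synthesis genes lies left of that of all genes over most of its course, with medians of -0.17 and -0.03, and the other lists have medians between -0.05 and 0.01.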

How the data were processed

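RNA-seq of E13.5 VZ–SVZ was analysed from 1 Rcor2fl/fl and 1 Rcor2cko library. Per the labels and methods, the authors used a stranded mRNA kit, mapped reads to mm9 with TopHat and deposited FPKM with 95% FPKM bounds, with 27641 transcript rows for Rcor2fl/fl and 21896 gene rows for Rcor2cko. The submitters' processing notes name TopHat 1.3.3 and Cufflinks 1.2.0; the methods name a later TopHat. Use of strand in counting is not given in the sources used here.

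Genes with at least 1 FPKM in a library were compared. For 14350 genes with a single transcript row of 1000 nt or more, fragments were recovered from the step of FPKM times length less an offset (194.0 and 200.9 nt). Of values up to 100 fragments, 99.3% and 99.4% lay within 0.1 of a whole number. Clopper-Pearson intervals cover counting error only. The steps were tested on simulated data. Every gene of the set is named; of each other pathway list, genes past 1.5-fold or the 2 largest rises and falls. Genes and lists were chosen with earlier results of these data known. Alternatives covered pseudocount, scaling, filter and row choice. Positions are from GENCODE vM1. Python 3.11.15, numpy 2.4.6, pandas 2.3.3, scipy 1.17.1 and matplotlib 3.10.9 were used.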

Additional observations from a re-analysis of the deposited data

How the results depend on the processing

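The medians of the set and of its sterol and fatty acid sides kept their direction under each of the 11 alternatives run on them. Most genes stayed below 0 in each. With single-row genes only, 22 of 26 were, against 57.6% of all genes passing the filter. Without a filter 27 of 31 were, which counts Hmgcs1, a gene these data do not measure. Of all 21896 genes 40.0% were then below 0, with a median of 0. With the highest row per gene 24 of 30 were, against 48.8% of all genes. The median of the set ran from -0.19 to -0.13, the latter with median scaling, where 49.5% of all genes were below 0. Shares of all genes past each fold were not computed for the alternatives, so the fold counts that follow have no background share. Genes more than 1.2-fold lower numbered 4 with a pseudocount of 1 or with median, upper-quartile or total scaling, and 0 when the 95% FPKM intervals also had to be apart. Genes more than 1.2-fold higher numbered 1 with a pseudocount of 1, with at least 5 FPKM, or with intervals apart. With the highest row per gene, 4 were more than 1.2-fold and 3 more than 1.5-fold higher, since this lowers the control values of genes with several rows and not their Rcor2cko values: log2 changes became 0.68 for Scap, 0.85 for Acly and -0.08 for Pmvk. With totals centred on the median gene, the exact test called 14 genes lower and 1 higher, where 9.31% of all tested genes were called lower and 9.89% higher. Of 267 recomputed values of single genes, 264 stayed within the gene's interval. Genes without recovered fragments have no interval, and a span of 0.22, the median interval width of the others, was used for them. The 3 that moved were Scap and Acly with the highest row per gene, and Scd2 with median scaling, at -0.05. No paired analysis was possible because each genotype has a single library. Depth limits Ebp, Scd1 and Tm7sf2 most.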

Other observations

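Close relatives of the synthesis genes were also examined, as a list of 13, of which 7 reached 1 FPKM in a library. The median log2 change of these 7 was 0.05, and 3 were below 0, where 57.6% of all genes passing the filter were. The difference from the synthesis genes was not tested. Abca2, a relative of Abca1, was at 11.6 and 9.71 FPKM, a log2 difference of -0.25 against the 0.74 of Abca1. Fads3, beside Fads1 and Fads2, was at 2.36 and 2.70 FPKM, and Stard3, a relative of Stard4, at 16.4 and 19.2 FPKM. Scd3 and Scd4, at 0.0648 to 0.191 FPKM, rested on 4 to 14 fragments.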
